A study of Mus musculus with 4 samples.

Results

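The proteasome genes measured here are the genes of the constitutive proteasome, the particle that degrades ubiquitin-tagged proteins: the subunits of its core particle, the subunits of its regulatory particle, and factors that help build it. They were chosen by symbol, as a list of 35 genes, and 33 of them were measured among 17097 genes on the arrays; Psmc6 and Psmd10 were not analysed here. Of the probe sets annotated to one gene alone, the brightest over the 4 arrays stood for that gene. The listed classes were the alpha ring (7 genes measured) and the beta ring (7) of the core, the ATPase ring (5 of 6), the other base subunits (3) and the lid (8) of the regulatory particle, and assembly factors (3 of 4).

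The cells were B16F10, a pigmented mouse melanoma line. Cells of 2 samples had received 2 µM plumbagin, a naphthoquinone made by plants of the Plumbago genus, for 24 h (plumbagin 1 and plumbagin 2), and cells of 2 samples had received MilliQ water in its place (0 µM, control 1 and control 2). One array was run per sample. The labels do not say whether samples of a group came from separate cultures, so p-values measure the spread between these samples, which may be technical. The arrays measured bulk RNA, so fewer cells of a kind and less RNA per cell cannot be told apart.

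In the core of the proteasome, outer alpha rings enclose inner beta rings, and the peptide bonds are cut inside by Psmb5 (chymotrypsin-like), Psmb6 (caspase-like) and Psmb7 (trypsin-like). The regulatory particle caps the core: its lid removes ubiquitin, its base binds ubiquitin chains, and its ATPases unfold the protein and feed it through the alpha ring. Transcription of these genes is raised together when proteasome capacity falls, mainly through NRF1 (gene Nfe2l1), and by the related oxidant-responsive factor NRF2 (gene Nfe2l2); both bind antioxidant response elements.

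Promoters of 27 of the 33 measured genes were in the RefSeq promoter table (GRCm38.p6), and the 250 bases before the annotated start were searched on both strands for the antioxidant response element core TGACNNNGC, the CCAAT box CCAAT and the ETS family core CCGGAAG. The first motif stood in 4 of 27 windows (14.8%; Psmb5, Psmb6, Psmd9 and Psmd12), against 10.1% of 27025 promoters of all genes. The CCAAT letters stood in 10 of 27 windows (37.0%), against 34.5% of all promoters, and the ETS letters in 8 of 27 (29.6%), against 7.05% of all. The searched motifs do not overlap each other in these windows. Shown here, each read 5′ to 3′ on its gene's strand with the matched letters in capitals, are Psmb5 (chr14:54617996-54618245, minus strand), Psmb6 (chr11:70525107-70525356, plus strand) and Psmd9 (chr5:123227940-123228189, plus strand), which hold the NRF-type motif and are described with their values further on, and Psmc2 (chr5:21785025-21785274, plus strand) and Pomp (chr5:147860378-147860627, plus strand), which hold the ETS letters and which had the smallest p of all members and the largest positive difference.
Psmb5: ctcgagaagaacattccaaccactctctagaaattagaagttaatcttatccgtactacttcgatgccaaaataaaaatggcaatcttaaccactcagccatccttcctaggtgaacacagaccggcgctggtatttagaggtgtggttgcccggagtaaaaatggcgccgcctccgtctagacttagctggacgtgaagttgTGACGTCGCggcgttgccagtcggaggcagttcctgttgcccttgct
Psmb6: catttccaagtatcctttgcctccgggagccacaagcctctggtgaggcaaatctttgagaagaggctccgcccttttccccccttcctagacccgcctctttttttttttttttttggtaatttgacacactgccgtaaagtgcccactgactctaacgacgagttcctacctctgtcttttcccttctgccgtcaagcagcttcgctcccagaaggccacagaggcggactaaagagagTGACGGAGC
Psmd9: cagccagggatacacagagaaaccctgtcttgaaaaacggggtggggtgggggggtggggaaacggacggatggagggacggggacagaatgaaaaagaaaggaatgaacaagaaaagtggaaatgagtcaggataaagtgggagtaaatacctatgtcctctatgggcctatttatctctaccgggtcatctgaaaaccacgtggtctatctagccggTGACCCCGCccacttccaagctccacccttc
Psmc2: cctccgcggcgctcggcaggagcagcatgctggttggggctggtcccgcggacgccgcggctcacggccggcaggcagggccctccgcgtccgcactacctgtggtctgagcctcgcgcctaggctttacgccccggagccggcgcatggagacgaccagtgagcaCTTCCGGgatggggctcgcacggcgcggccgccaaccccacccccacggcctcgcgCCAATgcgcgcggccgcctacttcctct
Pomp: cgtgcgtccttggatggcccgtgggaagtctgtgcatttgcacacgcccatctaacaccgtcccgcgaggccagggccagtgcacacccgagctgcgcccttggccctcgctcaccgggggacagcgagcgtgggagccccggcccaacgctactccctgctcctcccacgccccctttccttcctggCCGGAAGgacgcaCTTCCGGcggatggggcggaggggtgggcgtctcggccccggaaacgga
The match in Psmb5 began 47 bases before the start, that in Psmb6 9 bases and that in Psmd9 31 bases before it. Psmc2 held a CCAAT box 28 bases and the ETS letters 84 bases before its start, and Pomp held the ETS letters at 62 and 49 bases. A match is a description and no site, and a window without a match lacks only these letters.

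The arrays were close in distribution, with medians between 4.32 and 4.39 and upper quartiles between 6.26 and 6.36 on the log2 scale. The 14 spike-in probe sets averaged 8.97 on plumbagin 1, against 7.96 on plumbagin 2 and 7.73 and 8.07 on controls 1 and 2, and their part in the results was not tested. A background level was set at 5.05, the 95th percentile of the means of 41 odorant receptor genes, and all 33 measured proteasome genes lay above it, with means between 7.54 and 11.19. Melanocyte markers were above it in 10 of 10 genes, with means from 8.13 to 12.32. Leukocyte markers were above it in 1 of 6 (Cd3e, 6.22), endothelial markers in 1 of 4 (Kdr, 5.15), and fibroblast and epithelial markers in 0 of 5 and 0 of 4.

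Plumbagin was compared with the control to see whether proteasome genes differed after 24 h. No member passed the test: the smallest limma p was 0.0793 (Psmc2), every adjusted p was 1, and over all 17097 genes 0 passed (0%), with 169 (0.988%) at an unadjusted p under 0.05. Of the 33 members 0 had an unadjusted p under 0.05, against 1.02% of the genes in the brightness range of the members. The mean was lower with plumbagin in 25 of 33 members (75.8%), against 55.1% of all genes and 66.4% of the 3543 genes in that brightness range. The median difference was -0.06 (log2), against -0.01 over all genes and -0.05 over the genes of that brightness. Single members differed by -0.24 to 0.15, with standard errors of 0.08 to 0.24. Their 95% intervals all contained 0 and reached at most down to -0.69 (Psmd13) and up to 0.71 (Psmb2), so larger changes of any one member lie outside the interval of that member.

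Both plumbagin arrays lay below both controls in 9 of 33 members (27.3%), against 15.2% of all genes and 17.8% of genes of like brightness. These were Psmb7, Psmc2, Psmc4, Psmd4, Psmd6, Psmd7, Psmd8, Psmd11 and Psmd12. Of the 9, 8 encode the regulatory particle, which has 16 of the 33 measured members, and 5 of them the lid, which has 8. Both plumbagin arrays lay above both controls in 1 member, Psma3 (3.03%), against 10.2% of all genes and 5.56% of genes of like brightness. The count of 9 depended on the processing. It was 5 after quantile normalization (15.2%, against 16.0% of all genes), 5 with probe sets of a gene averaged (15.2%, against 14.8%) and 2 after cyclic loess normalization (6.06%, against 14.7%), so under these settings the members' share was close to or below that of all genes. With arrays centred on their medians it was 13 (39.4%, against 19.6%). Averaging took in probe sets without signal: of the 18 other probe sets of members, 9 had means below background.

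**Figure D1:**
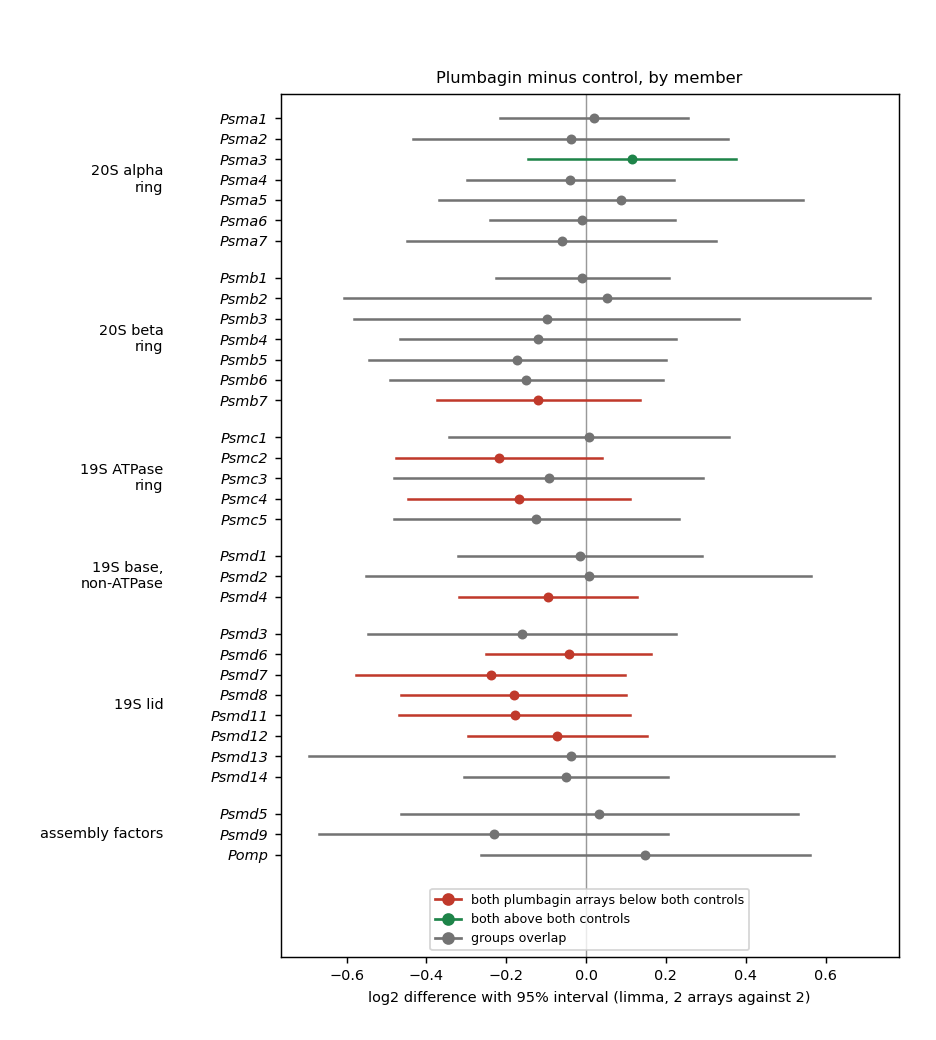
Difference between plumbagin and control for each measured proteasome gene, on the log2 scale, with its 95% interval from limma (2 arrays against 2), grouped by class. Red marks the 9 genes whose plumbagin arrays both lay below both controls, green the 1 gene above, and every interval crosses 0.

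The alpha ring forms the gate of the core. Its 7 genes had a median difference of -0.01, with 3 higher and 4 lower means, and lay between -0.06 and 0.11. The median was 0.0077 after quantile normalization and 0.03 after cyclic loess normalization, so its sign depended on the scaling. Psma3, a gate subunit, had log2 values of 10.36 and 10.20 in plumbagin 1 and 2, against 10.20 and 10.14 in controls 1 and 2. Its difference was 0.11 ± 0.10 (SE, n = 2 per group; limma, adjusted p = 1), and plumbagin 2 exceeded control 1 by less than the spread within either group. Psma5, another alpha subunit, had 9.29 and 8.94 in plumbagin 1 and 2, against 9.16 and 8.89 in controls 1 and 2. Here the arrays with number 1 were the high ones in both groups, and the groups overlapped (0.09 ± 0.17). The other members, Psma1, Psma2, Psma4, Psma6 and Psma7, differed by -0.06 to 0.02, and their groups overlapped.

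The beta ring holds the cutting sites. Its median difference was -0.12, with 6 of 7 means lower (against 66.4% of genes of like brightness), and all 3 active subunits were among these. Psmb5, the chymotrypsin-like subunit and the main target of bortezomib, had 9.33 and 9.30 in plumbagin 1 and 2, against 9.66 and 9.32 in controls 1 and 2 (-0.17 ± 0.14, limma, adjusted p = 1). Both plumbagin arrays were level with control 2, so the groups overlapped, and control 1 stood above the other arrays. Psmb6, the caspase-like subunit, had 9.61 and 9.46 in plumbagin 1 and 2, against 9.81 and 9.56 in controls 1 and 2 (-0.15 ± 0.13, limma, adjusted p = 1), and the groups overlapped. Psmb7, the trypsin-like subunit, had 9.84 and 9.81 in plumbagin 1 and 2, against 10.02 and 9.86 in controls 1 and 2 (-0.12 ± 0.09, limma, adjusted p = 1). Its groups did not overlap, though control 2 lay nearer to the plumbagin arrays than to control 1. Among the non-cutting members Psmb4 (-0.12) and Psmb3 (-0.10) had lower means, Psmb1 differed by -0.01, and Psmb2 by 0.05 with the widest interval of all members. All of these had overlapping groups.

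The ATPase ring unfolds substrates. Its 5 measured genes had a median difference of -0.12, with 4 lower means (against 66.4% of genes of like brightness). Psmc2 had 9.65 and 9.76 in plumbagin 1 and 2, against 9.98 and 9.86 in controls 1 and 2. It was lower within both numbers, with differences of -0.34 in number 1 and -0.10 in number 2, and its difference between the groups was -0.22 ± 0.10 (limma, adjusted p = 1). Psmc4 had 10.52 and 10.33 in plumbagin 1 and 2, against 10.64 and 10.55 in controls 1 and 2 (-0.17 ± 0.10, limma, adjusted p = 1). Neither gene overlapped between groups on these probe sets. A second bright probe set of Psmc4 differed by -0.18, and its groups overlapped. Psmc3 (-0.09) and Psmc5 (-0.12) had lower means with overlapping groups, and Psmc1 differed by 0.01.

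The other base subunits are scaffolds and ubiquitin receptors. Psmd4, which binds ubiquitin chains, had 9.97 and 9.96 in plumbagin 1 and 2, against 10.10 and 10.01 in controls 1 and 2 (-0.10 ± 0.08, limma, adjusted p = 1). The groups did not overlap, but of its 2 other probe sets the brighter differed by -0.18 and the dimmer, with a mean of 5.84, by 0.05. Psmd1, a scaffold, had 9.93 and 9.71 in plumbagin 1 and 2, against 9.89 and 9.78 in controls 1 and 2 (-0.02 ± 0.11). Psmd2, the other large scaffold, had 9.46 and 9.22 in plumbagin 1 and 2, against 9.59 and 9.08 in controls 1 and 2, so its difference of 0.01 hid a gap of 0.51 between the controls.

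The lid was the class in which all listed genes had lower means, 8 of 8, against 55.1% of all genes and 66.4% of genes of like brightness. Sem1, a small lid subunit kept in another list, went the other way. It differed by 0.13 ± 0.13, by 0.15 in number 1 and 0.12 in number 2, with overlapping groups. Its median was -0.12, against -0.05 at like brightness, and its range ran from -0.24 to -0.04. After cyclic loess normalization the signs of Psmd6, Psmd13 and Psmd14 turned. Psmd7, the partner of the deubiquitinase subunit, had 8.70 and 8.57 in plumbagin 1 and 2, against 9.01 and 8.74 in controls 1 and 2 (-0.24 ± 0.13, limma, adjusted p = 1). Its groups did not overlap. Of its other probe sets the brighter, near background with a mean of 5.11, differed by 0.12. The dimmer, below background with a mean of 3.21, differed by 0.02. The mean of all its probe sets differed by -0.034. Psmd8 had 10.99 and 11.20 in plumbagin 1 and 2, against 11.27 and 11.28 in controls 1 and 2 (-0.18 ± 0.10, limma, adjusted p = 1). Here the controls were nearly equal, and plumbagin 1 was the low array. Psmd11, a structural subunit, had 9.24 and 9.15 in plumbagin 1 and 2, against 9.47 and 9.27 in controls 1 and 2 (-0.18 ± 0.11). Its groups were apart, but those of the brightest of its other probe sets, which differed by -0.10, overlapped. The mean of all its probe sets, some of them below background (means of 3.78 and 4.48), differed by -0.072. Psmd6 had 9.70 and 9.72 in plumbagin 1 and 2, against 9.76 and 9.76 in controls 1 and 2, and Psmd12 had 8.78 and 8.76, against 8.89 and 8.80. Both sets of values were apart by small margins, and a second bright probe set of Psmd6 differed by 0.0039. Psmd14, the deubiquitinase itself, differed by -0.05, Psmd3 by -0.16 and Psmd13 by -0.04, all with overlapping groups. With probe sets of a gene averaged, those below background included, the lid's median was -0.06.

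Among the assembly factors Pomp, the chaperone that is consumed when the core matures, had 9.97 and 9.65 in plumbagin 1 and 2, against 9.77 and 9.55 in controls 1 and 2 (0.15 ± 0.15, limma, adjusted p = 1). It was higher within both numbers, by 0.20 and 0.10, but the groups overlapped. Psmd9, a chaperone of the ATPase ring, had 7.47 and 7.37 in plumbagin 1 and 2, against 7.85 and 7.45 in controls 1 and 2 (-0.23 ± 0.16, limma, adjusted p = 1), and control 1 alone stood high. With its probe sets averaged the difference was -0.063, but its other probe sets lay below background (means of 4.11 and 3.01). Psmd5, another base chaperone, had 8.10 and 7.79 in plumbagin 1 and 2, against 8.10 and 7.72 in controls 1 and 2, with no more than 0.07 between arrays of the same number. The differences between classes were not tested, and the core and the regulatory particle are set side by side as counts. Both plumbagin arrays lay below both controls in 1 of 14 core genes (median -0.04) and in 8 of 16 regulatory genes (median -0.09), against 15.2% of all genes and 17.8% of genes of like brightness. Over all members this count depended on the processing, as given above. Number 1 was above number 2 in both groups in all 14 core genes and in 12 of 16 regulatory genes. Such gaps widen the spread within groups, and their part in these counts was not tested.

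**Figure D2:**
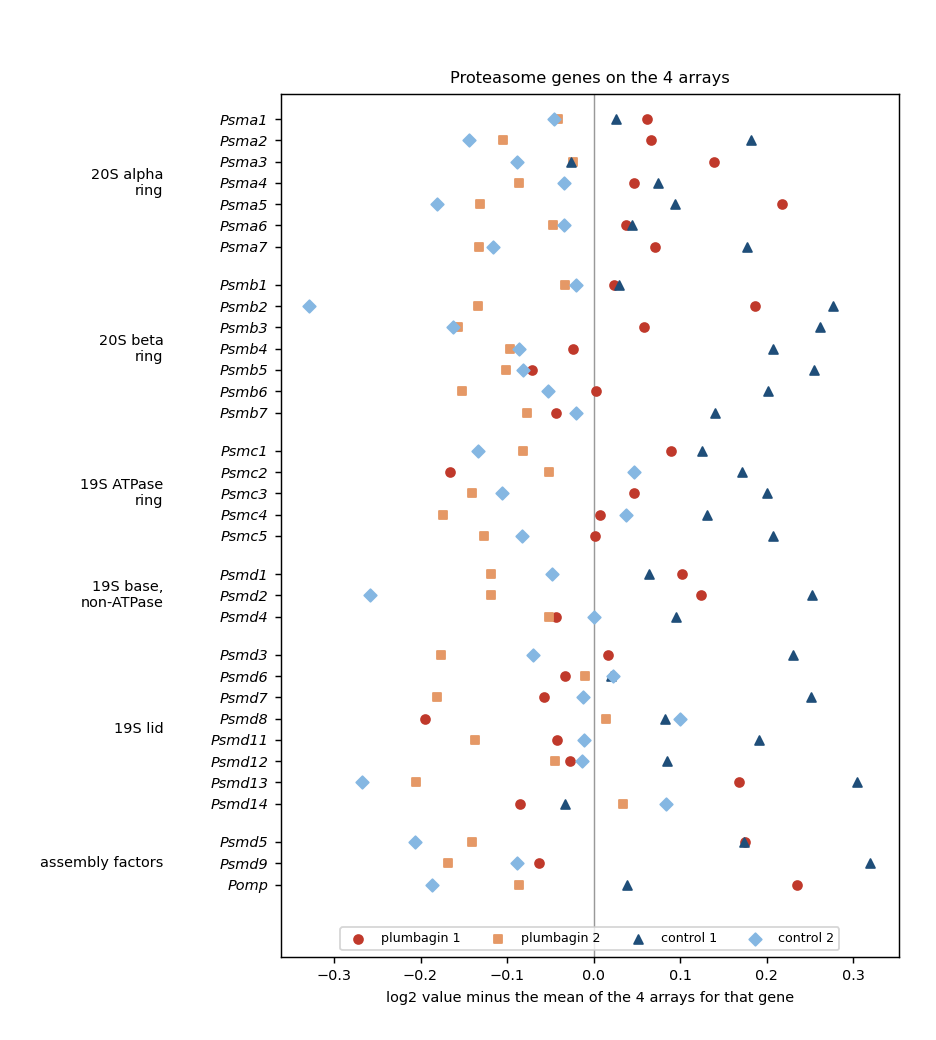
Log2 value of each measured proteasome gene on each array, minus the mean of the 4 arrays for that gene. Plumbagin arrays are red and orange, controls dark and light blue; control 1 (dark blue triangles) was the highest array for 24 of 33 genes and plumbagin 2 (orange squares) the lowest for 18.

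The members also differed between single arrays of one group. Between single arrays of the 2 treatments their median difference was -0.12 in number 1 and -0.03 in number 2. Control 1 exceeded control 2 in 30 of 33 members (90.9%, against 59.2% of all genes and 55.1% of genes of like brightness), with a median difference of 0.25 against 0.03 over all genes. Plumbagin 1 exceeded plumbagin 2 in 29 of 33 (87.9%, against 54.2% of all genes and 37.3% of genes of like brightness), with a median of 0.13 against 0.02. Both held for the same 29 members, while 37.5% of all genes and 31.4% of genes of like brightness did so. In all genes of that brightness the plumbagin arrays differed the other way, with a median of -0.09. The exceptions were Psmc2 and the lid genes Psmd6, Psmd8 and Psmd14, whose arrays with number 2 were the higher ones in 1 or both groups.

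All 14 core genes were higher in number 1 than in number 2 in both groups. The largest gaps between the controls were those of Psmb2 (0.61), Psmd13 (0.57) and Psmd2 (0.51), and the same genes differed between plumbagin 1 and plumbagin 2 by 0.32, 0.37 and 0.24. At the other end Psmd14 differed by -0.12 in both groups. The labels do not say what the numbers stand for, and what sets them apart was not tested. The count of 29 of 33 was also 29 after quantile normalization (against 33.9% of all genes) and cyclic loess normalization (29.7%), and was 25 (75.8%, against 24.6%) with arrays centred on their medians.

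Within number 1, plumbagin was lower in 27 of 33 members (81.8%, against 55.5% of all genes and 70.5% of genes of like brightness). The median was -0.12, equal to that of the genes of like brightness (-0.12). Within number 2, plumbagin was lower in 22 of 33 (66.7%, against 51.5% of all genes and 50.7% of genes of like brightness), with a median of -0.03 against -0.0017 at like brightness. With 1 array a side these are values with no test. In number 1 the class medians were -0.01 for the alpha ring, -0.20 for the beta ring, -0.15 for the ATPases and -0.18 for the lid. In number 2 they were 0.0042, -0.01, -0.04 and -0.07, so the beta ring's -0.20 of number 1 did not recur. That value lay inside the interquartile range of genes of like brightness in number 1, which ran from -0.25 to 0.03. Plumbagin was lower in both numbers in 21 of 33 members (63.6%, against 29.0% of all genes and 38.6% of genes of like brightness) and higher in both in 5 (15.2%, against 21.7% and 17.4%): Psma1, Psma3, Psma5, Psmd5 and Pomp.

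**Figure D3:**
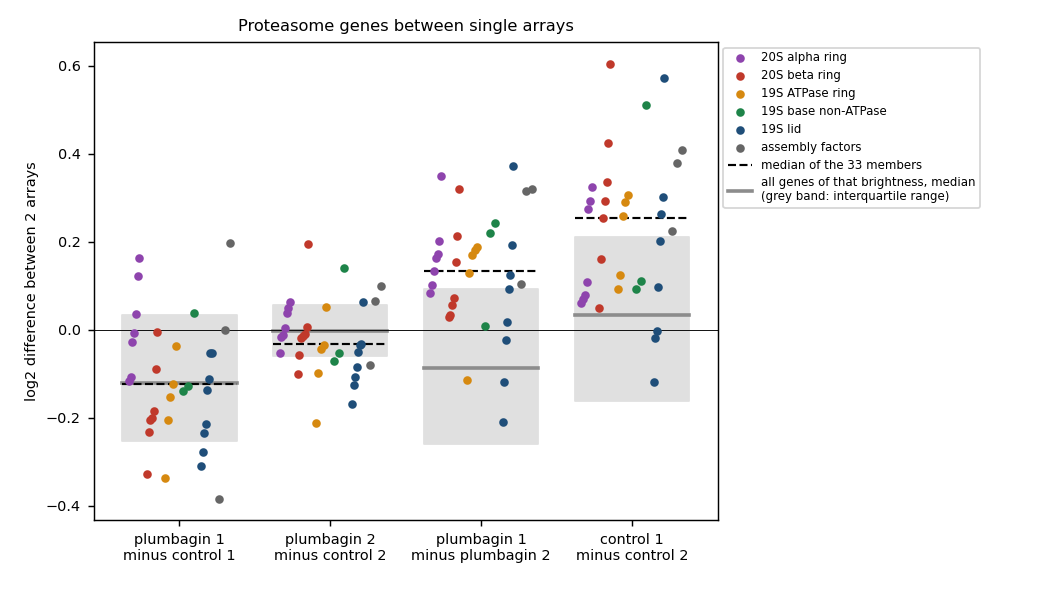
Log2 differences of the 33 proteasome genes between single arrays, coloured by class, with their median as a dashed line and the median and interquartile range of all genes of like brightness in grey. The dashed line stands at 0.13 and 0.25 between arrays of one group, well above the grey medians, and at -0.12 and -0.03 between treatments.

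The direction of the members' median hung on single arrays. It was -0.20 without control 2 and -0.12 without plumbagin 1, but 0.02 without control 1 and 0.00015 without plumbagin 2. Over these 4 fits, 13 members stayed below 0 in all, 1 (Psma3) stayed above 0, and 19 turned sign. The 13 were the active subunits Psmb5, Psmb6 and Psmb7, the ATPases Psmc2 and Psmc4, the ubiquitin receptor Psmd4, the lid genes Psmd3, Psmd6, Psmd7, Psmd8, Psmd11 and Psmd12, and Psmd9. Over the fits their differences ranged as follows: Psmc2 -0.28 to -0.16, Psmd7 -0.37 to -0.11, Psmd11 -0.28 to -0.078, Psmc4 -0.26 to -0.077 and Psmd8 -0.29 to -0.077. The others came within 0.05 of 0 in at least 1 fit: Psmd4 -0.14 to -0.049, Psmb7 -0.20 to -0.040, Psmd6 -0.055 to -0.032, Psmd9 -0.44 to -0.027, Psmd12 -0.12 to -0.023, Psmb6 -0.28 to -0.022, Psmd3 -0.31 to -0.0099 and Psmb5 -0.34 to -0.0042.

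**Figure D4:**
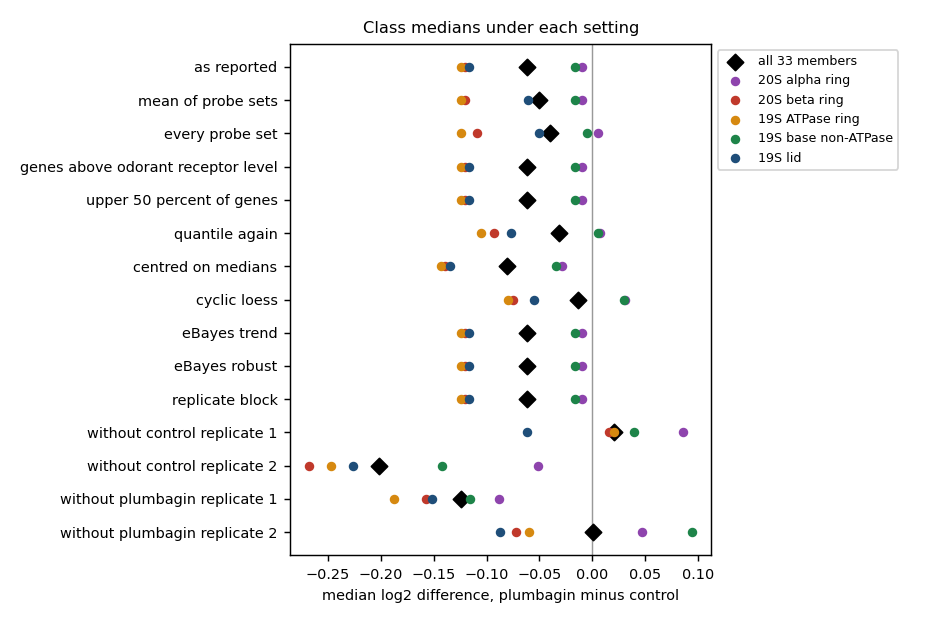
Median log2 difference, plumbagin minus control, over all 33 members (black diamonds) and over 5 classes (coloured points), as reported and under each of 14 other settings. The medians of all members lie between -0.20 and 0.02, and the largest moves come from leaving out an array.

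Other genes of the ubiquitin and proteasome system were read from the same fit. Of 36 measured genes in 7 lists, 0 passed in either direction and none had an unadjusted p under 0.05. Means were lower in 27 of 36, against 55.1% of all genes and 66.4% of genes in the brightness range of the members. Their median was -0.09, against -0.01 and -0.05. The same shares stand beside the counts of lower means in single lists below. In 5 of 36 (13.9%, against 15.2% of all genes) both plumbagin arrays were below both controls, and in 1 of 36 both were above, against 10.2% of all genes. Of the subunits that replace constitutive ones in immune cells, germ cells or the thymus, only Psmb10 had a mean above background (6.26), so Psmb8, Psmb9, Psmb11 and Psma8 had means below it. Psmb10 had 6.23 and 6.29 in plumbagin 1 and 2, against 6.57 and 5.93 in controls 1 and 2, and was named for being the one above background.

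The activators and the inhibitor of the core, Psme1, Psme2, Psme3 and Psmf1, had 4 of 4 lower means. Psme3, the nuclear activator subunit, differed by -0.23 ± 0.18, Psme1 by -0.11 ± 0.11 and Psmf1 by -0.11 ± 0.15. Of the other assembly chaperones 4 of 4 were lower, with a median of -0.18. Psmg3 had 7.35 and 7.87 in plumbagin 1 and 2, against 7.89 and 7.95 in controls 1 and 2, and Psmg2 had 8.53 and 8.81, against 8.86 and 8.86. In both genes plumbagin 1 was the low array, and the differences were -0.31 ± 0.20 and -0.19 ± 0.12. Psmg4 differed by -0.14 ± 0.12, and by -0.053 with its probe sets averaged.

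Among other regulatory subunits and associated enzymes 4 of 8 measured genes were lower. Sem1, the small lid subunit, differed by 0.13 ± 0.13, and Zfand2a, a stress-induced zinc finger protein that binds the proteasome, by -0.28 ± 0.28 and by -0.16 with its probe sets averaged. Nfe2l1 and Nfe2l2, the genes of NRF1 and NRF2, differed by 0.03 ± 0.10 and 0.04 ± 0.12 and were chosen for their role. Ngly1 and Syvn1, which act in NRF1 processing at the endoplasmic reticulum, differed by -0.10 ± 0.11 and -0.09 ± 0.12, the second by -0.14 with its probe sets averaged. Of the segregase cofactors and shuttle receptors 8 of 9 were lower. Nploc4, a cofactor of the VCP segregase, had 7.88 and 7.93 in plumbagin 1 and 2, against 8.41 and 8.05 in controls 1 and 2 (-0.33 ± 0.15, limma, adjusted p = 1). Ubqln2, a shuttle receptor, had 7.38 and 7.35 in plumbagin 1 and 2, against 7.21 and 7.19 in controls 1 and 2 (0.16 ± 0.08, limma, adjusted p = 1). The 2 genes lay on opposite sides with no overlap between groups, and neither passed. With its probe sets averaged Ubqln2 differed by 0.069. Of the ubiquitin and E1 genes Uba6 alone was measured, with a mean of 2.48, below background.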

How the data were processed

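Biotin-labelled cRNA of 4 samples was measured on Affymetrix arrays, per the labels' protocols. The authors deposited 1 log2 value per array and probe set. Per the submitters' processing notes RMA was run, with Transcriptome Analysis Console and Affymetrix Expression Console also named, while settings and versions were not given in the sources used here. Since RMA includes normalization between arrays, a shift of most genes one way would not be seen. The number of arrays, 2 per group, limits the precision.

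The table held 45141 probe sets, 28898 of them with 1 gene symbol in the platform annotation, which can be old; symbols of 28689 were matched by gene ID to a RefSeq gene table (GRCm38.p6). Each of 17097 genes was represented by its brightest probe set. Groups came from the sample titles. Differences were fitted in R 4.3.3 with limma 3.58.1 (lmFit, then eBayes), without covariates or a filter on dim genes, two-sided, with Benjamini-Hochberg adjustment over all genes and a threshold of 0.05. Errors are standard errors of that fit. The code was tested on simulated data with the gene means of these arrays and the fit's spread for each gene, drawn independently for each array. There the fit recovered 0% of genes moved by 0.25 (log2), 3.7% of those moved by 0.5 and 84.2% of those moved by 1. Changes as small as the differences of the members would thus not be expected to pass in data of that kind. Of 2029 calls in the simulated data, 153 were of genes that had not been moved. Gaps between arrays that many genes share, such as those between the numbers here, were not simulated.

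The members, classes and other gene lists were chosen with earlier results of these data known. Values by array were given for the 2 members of each class with the smallest p, for the active beta subunits and Pomp; members whose probe sets disagreed or whose sign turned when an array was left out could be added; up to 3 genes of each other list were named. Psmd11, Psmd12, Psmb10, Nfe2l1 and Nfe2l2 fall outside this rule, and the motifs were chosen with the values known. The genes of like brightness are all genes with a mean between the lowest and the highest member. Of 14 alternatives, the normalization, the probe set, the filter, the variance model, the replicate number as a block and each array left out were tried. The comparisons of arrays by number within and between groups, and their alternatives, were added after seeing the data.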

Additional observations from a re-analysis of the deposited data

How the results depend on the processing

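No gene, no proteasome member and no other gene of the ubiquitin-proteasome lists passed limma's adjusted threshold under any of the 14 alternatives, and at most 1 member had an unadjusted p under 0.05 (with the replicate block, and without control 2). The number of members with both plumbagin arrays below both controls, 9 as reported, was 5 with probe sets of a gene averaged (15.2% of members, against 14.8% of all genes), 5 after quantile normalization (15.2%, against 16.0%) and 2 after cyclic loess (6.06%, against 14.7%). With an array left out, where fewer arrays have to be apart, it lay between 10 and 26. It was 10 without control 1 (30.3%, against 28.2%), 10 without plumbagin 2 (30.3%, against 34.9%), 21 without plumbagin 1 (63.6%, against 36.2%) and 26 without control 2 (78.8%, against 39.9%). The number of members higher in number 1 in both groups became 44 of 51 with every probe set kept (86.3%, against 36.6% of all), since more features were counted. Signs turned after quantile normalization for Psmd1 0.0049, Psma6 0.0077, Psmb1 0.020; with arrays centred on medians for Psmc1 -0.011, Psmd2 -0.013, Psmb10 -0.0094; and after cyclic loess for Psmd1 0.030, Psma2 0.010, Psma4 0.0094, Psma6 0.031, Psmb1 0.039, Psmd6 0.0040, Psmd13 0.022, Psmd14 0.00026; the cause was not tested. With each array left out in turn, the median ran from -0.20 to 0.021 for all members, -0.088 to 0.085 for the alpha ring, -0.27 to 0.016 for the beta ring, -0.25 to 0.021 for the ATPases, -0.14 to 0.094 for the other base subunits, -0.23 to -0.062 for the lid, -0.16 to 0.22 for the assembly factors. Of the genes given with a difference or with values by array, those whose sign turned with an array left out ranged as follows: Nfe2l1 -0.054 to 0.11, Nfe2l2 -0.070 to 0.15, Ngly1 -0.21 to 0.021, Pomp -0.012 to 0.31, Psma1 -0.031 to 0.072, Psma2 -0.20 to 0.12, Psma4 -0.11 to 0.027, Psma5 -0.088 to 0.26, Psma6 -0.052 to 0.033, Psma7 -0.21 to 0.085, Psmb1 -0.038 to 0.019, Psmb10 -0.31 to 0.33, Psmb2 -0.25 to 0.36, Psmb3 -0.31 to 0.11, Psmb4 -0.27 to 0.026, Psmc1 -0.12 to 0.14, Psmc3 -0.25 to 0.059, Psmc5 -0.27 to 0.021, Psmd1 -0.13 to 0.094, Psmd13 -0.32 to 0.25, Psmd14 -0.11 to 0.0089, Psmd2 -0.25 to 0.26, Psmd5 -0.16 to 0.22, Psmf1 -0.27 to 0.037, Syvn1 -0.19 to 0.0013, Zfand2a -0.66 to 0.10. Where 1 array was left in a group, its spread was taken to be that of the opposite group. The labels do not say that the numbers pair samples, and there are only 2 pairs. Across 17097 genes the differences between numbers in the plumbagin and control groups had a Pearson r of 0.54. It was 0.62 across genes above background and 0.70 across the 33 members. With the replicate block the median was -0.06 by construction, 0 genes passed and 434 had an unadjusted p under 0.05, against 169 without it. All measured members lay above the background level. Of the printed differences of at least 0.09 in size, those moved by over 1.5 times with the same sign were Psme1 -0.070, Psmf1 -0.052, Psmg4 -0.082, Ngly1 -0.041, Syvn1 -0.033 after quantile normalization, and Psmb7 -0.075, Psmd4 -0.052, Psme1 -0.058, Psmf1 -0.046, Psmg4 -0.070, Ngly1 -0.027, Syvn1 -0.024, Psmb3 -0.052, Psmc3 -0.043, Psmc5 -0.079, Psmd3 -0.098 after cyclic loess.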
